A study of Mus musculus with 4 samples.

Results

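The Hist genes are the 67 genes of the deposited matrices whose symbols begin with Hist1h, Hist2h, Hist3h or Hist4h, out of 32285 gene features. They encode 6 linker (H1), 18 H2A, 18 H2B, 12 H3 and 13 H4 histones, and the symbols alone decided which genes were taken. Their level was measured by 10x Genomics 3′ single-cell RNA sequencing with antibody barcodes in Kit+ CD45.2+ mouse bone marrow, taken 10 weeks after transplantation. There were 4 libraries, each the only one of its group: a control, one labelled Mll3 deleted, one labelled Mll4 deleted, and one labelled Mll3/4 deleted, in which both are named. Mll3 and Mll4, also called Kmt2c and Kmt2d, are large methyltransferases of histone H3 that act at enhancers, and the series asks what they do in blood stem cells and in the choice between myeloid and B-cell fates. How the genes were deleted, in which cells, and how many animals gave each library are not given in the sources used here, so group and library cannot be told apart and no test compares the groups. Differences between libraries are given as log2 ratios with exact 95% intervals that cover counting error only.

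Most histone protein is made while DNA is being copied. The genes that supply it lie in clusters, mostly lack introns, and are switched on together at the start of S phase, when NPAT brings transcription factors to them in nuclear bodies. Their messages normally end in a short stem-loop in place of a poly(A) tail, are held by the stem-loop binding protein Slbp, and are destroyed when DNA synthesis stops. A 3′ kit primes on poly(A), so the counts here come from polyadenylated or internally primed copies of these messages, and how much of each message was reached was not measured. Blood progenitors include many dividing cells.

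In the GENCODE annotation of GRCm38, 54 of the genes lie on chromosome 13, in a block of 23 (chr13:21715763-22043676) and a block of 31 (chr13:23531050-23934851). The 10 Hist2h genes lie at chr3:96219865-96270132, the 2 Hist3h genes at chr11:58948920-58956830 and Hist4h4 at chr6:136801553-136804415. A single exon makes up every model of 62 of the 67. A histone stem-loop was found in the transcript models of 42 genes, in 5 versions: 26 genes of the H1, H2A, H2B and H3 families carried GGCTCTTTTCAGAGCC, 7 H4 genes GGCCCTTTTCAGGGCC, 6 genes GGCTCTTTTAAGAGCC, 2 H4 genes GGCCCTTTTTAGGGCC and 1 H2A gene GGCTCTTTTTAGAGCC. The sites of 7 genes on which the results below turn are shown 5′ to 3′ as DNA, with the stem-loop in capitals:
Hist1h1e: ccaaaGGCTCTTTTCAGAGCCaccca
Hist1h2ap: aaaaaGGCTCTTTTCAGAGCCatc
Hist1h3b: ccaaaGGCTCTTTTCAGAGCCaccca
Hist1h3c: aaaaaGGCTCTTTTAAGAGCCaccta
Hist1h4d: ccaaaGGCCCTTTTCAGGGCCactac
Hist3h2a: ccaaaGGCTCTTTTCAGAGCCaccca
Hist3h2ba: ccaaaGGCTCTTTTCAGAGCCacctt
The capitals are the same in Hist1h2ap and Hist1h3b, genes with large rises in dividing cells, and in Hist3h2a and Hist3h2ba. The H4 gene Hist1h4d differs from these in its stem, and Hist1h3c in its loop. Against cells called neither S nor G2/M, Hist3h2a and Hist3h2ba fell in S and did not pass the test in G2/M.

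After filtering, 7146 control, 5860 Mll3, 5350 Mll4 and 6917 Mll3/4 cells remained, 25273 in all, with median depths of 15754, 16964, 5142 and 9965 UMIs. Pairs of libraries shared 3 to 15 cell barcodes. The Mll4 library stood apart in depth and in Xist, at 0.519 CPM (UMIs per 1000000 gene UMIs) against 955 to 1839 in the other libraries, and the Mll3/4 library was 6832 of 6917 B-cell progenitor-like cells. Kmt2c stood at 47.9 CPM in control, 27.2 in Mll3, 59.2 in Mll4 and 34.8 in Mll3/4, and Kmt2d at 25.8, 21.6, 25.0 and 24.7 in the same order. Which exons were deleted is not given, and a 3′ tag outside them checks nothing, so each library is called by its label. Kit, the gene of the surface protein used for the sort, stood at 105 CPM in control, 108 in Mll3, 167 in Mll4 and 189.8 in Mll3/4, and Ptprc, which encodes CD45, at 90.1, 66.3, 216 and 118.

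The Hist genes gave 3171013 UMIs, 0.793% of all gene UMIs. The sum was 6903 CPM in control, 7578 in Mll3, 7125 in Mll4 and 10901 in Mll3/4. The 6 linker histone genes outweighed their number: H1 gave 50.6% of these UMIs, H2A 21.7%, H3 11.3%, H4 9.56% and H2B 6.84%. Linker histones bind the DNA between nucleosomes, and the other 4 families form the nucleosome core. The linker gene Hist1h1b alone gave 25.3%, and with the linker gene Hist1h1e 41.4%. The 12 genes with most UMIs gave 83.4%. They were Hist1h1b, Hist1h1e, Hist1h2ap, Hist1h4d, Hist1h2ae, Hist1h3c, Hist1h1c, Hist2h2ac, Hist1h1d, Hist1h3e, Hist1h2ab and Hist1h1a. These are shares of captured 3′ tags, which are not divided by gene length. At least 1000 UMIs were counted for 55 genes, and under 20 for 4: Hist2h2aa2, Hist1h2bq and the testis histone genes Hist1h2ba and Hist1h2aa.

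Cells were called S, G2/M or neither from 39 S and 52 G2/M genes, none of which is a histone gene or belongs to the lists below. Most Hist genes rose in the cells called S and in those called G2/M, but in cells with the S score alone above 0 the sum lay below that of neither phase in all 4 libraries (1111 to 1262 against 1374 to 1825 CPM), as set out further on. Neither phase means that both scores were at or below 0, which does not exclude cycling cells. Summed, they stood in cells of neither phase at 1694 CPM in control, 1718 in Mll3, 1374 in Mll4 and 1825 in Mll3/4. In S cells they stood at 4307, 5227, 4284 and 3061 in the same order. In G2/M cells they stood at 9358, 9593, 9743 and 29014. The order neither, S, G2/M was the same in all 4 libraries, and the 3 groups of 4 values did not overlap. The G2/M value of the Mll3/4 library was far above the other 3, and its S value below them.

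Hist1h1b shows the common pattern. It stood at 162, 170, 98.1 and 99.4 CPM in cells of neither phase, in the order control, Mll3, Mll4, Mll3/4. It stood at 1453, 1671, 937 and 688 in S and at 2665, 2513, 1726 and 6531 in G2/M. In all 4 libraries S lay above neither, and G2/M above S. The log2 fold change was 3.22 in S (SE 0.399, adjusted p = 0.000466) and 4.79 in G2/M (SE 0.434, adjusted p = 4.31e-05), by edgeR's quasi-likelihood test on UMI sums per library and phase with library as a block. All fold changes between phases below come from that fit to 13373 genes, with p-values adjusted over all of them by Benjamini-Hochberg.

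Of 62 Hist genes that passed the filter on low counts, 40 rose in S, 2 fell and 20 did not pass the test, where 19.4% of all genes tested rose and 21.0% fell. In G2/M 56 rose, none fell and 6 did not pass, where 26.0% of all genes rose and 28.7% fell. The median log2 fold change of the 62 was 1.53 in S and 3.17 in G2/M, against -0.08 and -0.04 over all genes. Against S directly, 50 rose in G2/M (10.9% of all genes did) and none fell (8.91%), but 19 rose without the control library and 18 without the Mll4 library. Without the Mll3/4 library 2 of 61 fell in G2/M against neither phase, Hist1h2bc and Hist3h2a. The 5 genes that did not pass the filter were Hist2h2aa2, Hist1h2bq, Hist1h2ba, Hist1h2aa and Hist1h1t. By family the median S change ran from 0.99 for H1 through 1.24 for H4, 1.52 for H3 and 1.84 for H2B to 2.18 for H2A.

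**Figure D1:**
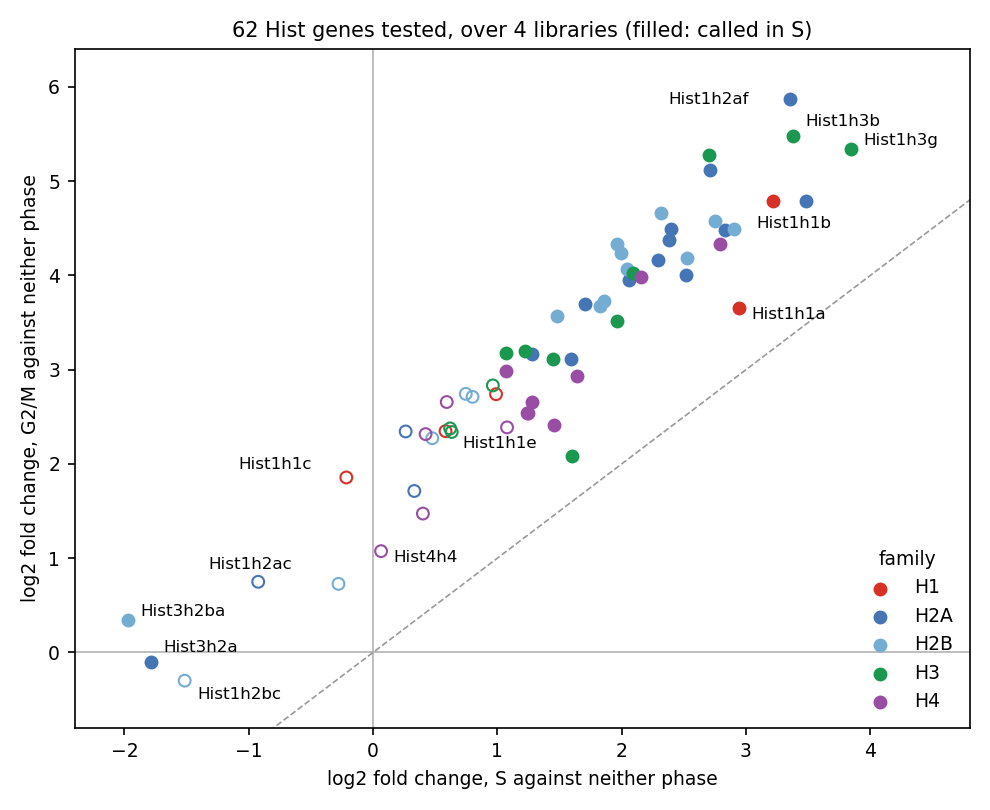
Each point is 1 of the 62 Hist genes tested, by its log2 fold change in S (x axis) and in G2/M (y axis) against cells of neither phase, coloured by histone family and filled where the S change passed the test. All 62 lie above the dashed line of equal change, and Hist3h2a, Hist3h2ba, Hist1h2bc, Hist1h2ac, Hist2h2be and Hist1h1c lie to the left of 0.

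The 5 genes with the largest rises in S were Hist1h3g (log2 3.84, SE 0.503, adjusted p = 0.000588), Hist1h2an (3.49), Hist1h3b (3.38), Hist1h2af (3.35) and Hist1h1b. Each encodes a core or linker histone of the replication-dependent kind. Hist1h3g went from 0.389, 0.41, 0.384 and 0.296 CPM in cells of neither phase to 5.52, 5.42, 4.91 and 2.55 in S, in the order control, Mll3, Mll4, Mll3/4. All 4 S values lay above all 4 values of neither phase. In G2/M the 5 largest rises were those of Hist1h2af (5.87, SE 0.486, adjusted p = 2.67e-05), Hist1h3b (5.48), Hist1h3g (5.34), Hist1h3c (5.28) and Hist1h2ab (5.12).

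The pair of Hist3h genes went the other way in S. Hist3h2a, an H2A gene that overlaps Trim17 on the same strand, stood at 21.1, 22.9, 17.3 and 20.3 CPM in cells of neither phase, in the order control, Mll3, Mll4, Mll3/4. In S it stood at 6.53, 5.42, 4.78 and 6.02, below all 4 of the former values. Its log2 fold change was -1.79 in S (SE 0.309, adjusted p = 0.0024) and -0.10 in G2/M (adjusted p = 0.78). Hist3h2ba, an H2B gene, stood at 7.15, 10.6, 5.19 and 26.9 in cells of neither phase and at 1.22, 2.64, 1.03 and 11.5 in S. Each library fell, though the S value of Mll3/4 lay above the other libraries' values in either state. The log2 fold change of Hist3h2ba was -1.97 in S (SE 0.524, adjusted p = 0.0162), and the call was lost without the control or the Mll4 library. In G2/M it was 0.34 (adjusted p = 0.572). From S to G2/M both genes rose, Hist3h2a by 1.69 (adjusted p = 0.00751) and Hist3h2ba by 2.31 (adjusted p = 0.0156).

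The fold changes nearest to these were those of Hist1h2bc (-1.52, SE 0.579, adjusted p = 0.0623), Hist1h2ac (-0.92, adjusted p = 0.241), Hist2h2be (-0.28) and Hist1h1c (-0.21), none of which passed. Hist1h2bc, an H2B gene, stood in cells of neither phase at 131, 159, 101 and 29.8 CPM in the order control, Mll3, Mll4, Mll3/4, and in S at 38.0, 40.8, 53.4 and 11.0. It was lower in S in each library. Leaving out the Mll3/4 library brought the count of genes that fell in S to 4, with Hist1h2bc and Hist1h2ac added. The linker gene Hist1h1e, second in UMIs, changed by 0.58 in S (SE 0.246, adjusted p = 0.0852) and by 2.35 in G2/M (SE 0.258, adjusted p = 0.000119). Its level in cells of neither phase was already high, at 457, 393, 249 and 687 CPM in the same order.

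The cells called S were not of one kind, since many also had a G2/M score above 0. An alternative chosen after seeing the data therefore split cells by both scores. In cells with the S score alone above 0 the summed level was 1140 CPM in control, 1111 in Mll3, 1182 in Mll4 and 1262 in Mll3/4. With both scores above 0 it was 9051, 9346, 10050 and 26916, and with the G2/M score alone 7848, 8389, 7242 and 23777. The S score alone thus went with sums below those of neither phase in all 4 libraries. In that state 1 of 61 Hist genes tested rose, Hist1h4a, and 7 fell, where 7.96% of all genes rose and 10.3% fell. The 7 were Hist3h2ba (-2.78), Hist3h2a (-1.90), Hist1h1c (-1.37), Hist1h1e (-0.87), Hist1h3f, Hist2h2ac and Hist2h2be. With both scores above 0, 55 rose and 1 fell, where 28.2% of all genes rose and 31.3% fell. With the G2/M score alone 55 rose and none fell, where 19.3% rose and 22.6% fell. These states come from scores and are ranges, not phases measured by DNA content: 8.63% of cells had their higher score within 0.05 of the dividing value. Thinning each cell to 2000 UMIs before the call moved the G2/M share in control from 47.2% to 58.0%, and then 44 genes rose in S and 57 in G2/M.

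**Figure D2:**
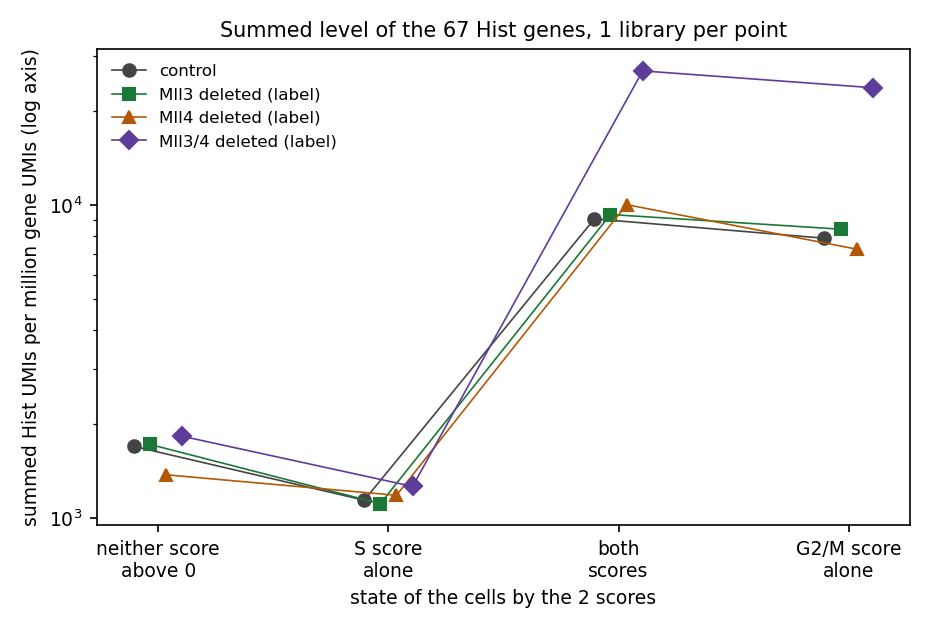
Summed level of the 67 Hist genes in CPM (y axis, log scale) in cells with neither score, the S score alone, both scores or the G2/M score alone above 0 (x axis), 1 point per library, joined by library. The S score alone gave 1111 to 1262 and both scores 9051 to 26916.

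The fit was repeated in a single class of cells to hold the cell type fixed, since classes took unequal shares of the states: 38.4% of control HSC/MPP-like cells and 97.4% of control erythroid progenitor-like cells were called S or G2/M. In B-cell progenitor-like cells 41 of 51 Hist genes rose in S and 1 fell, Hist3h2a at -1.95, where 16.9% of the genes tested rose and 11.5% fell. In HSC/MPP-like cells, from the 3 libraries that held enough of them, 19 of 33 rose and 6 fell, where 20.3% of genes rose and 22.4% fell. The rises were led by Hist1h3b (2.15), Hist1h2an (2.10), Hist1h1b (1.97) and Hist1h1a (1.97). The genes that fell were Hist1h2bc (-2.59), Hist3h2a (-2.16), Hist1h2ac (-1.48), Hist1h1c (-0.74), Hist1h4i (-0.59) and Hist1h1e (-0.35). Hist1h1e and Hist1h4i thus had the opposite sign to the fit over all cells, where neither passed. In G2/M 50 Hist genes rose among B-cell progenitor-like cells and none fell, where 16.7% of genes rose and 14.7% fell. Among HSC/MPP-like cells 32 rose and none fell, where 10.3% rose and 7.61% fell. From S to G2/M, 46 rose and none fell among B-cell progenitor-like cells (4.04% and 2.42% of genes), and 33 rose and none fell among HSC/MPP-like cells (5.88% and 5.30%).

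The S changes were set beside the annotated 3′ ends, since the kit counts 3′ tags. The models of 21 genes ended within 100 bases of the stem-loop. The 20 of these that were tested had S changes from 0.33 to 3.38 (median 2.01). The models of 21 others ran over 100 bases past it, and the 20 tested had a median of 0.63 with 4 below 0: Hist3h2ba, Hist3h2a, Hist1h2ac and Hist1h1c. For 20 genes no stem-loop was found and the 3′ UTR was under 300 bases. The 18 tested had a median of 2.12, with none below 0. Several of these models, such as those of Hist1h1b, Hist1h2bl, Hist1h2an and Hist1h3i, have a 3′ UTR of 0 bases. No stem-loop could be found in such models, so this group does not show that the genes lack one. The last 5 had a 3′ UTR of 300 bases or more without a stem-loop, among them Hist1h2bc and Hist2h2be, and the 4 tested had a median of 0.23. So each of the 6 genes with an S change below 0 had a model that runs on past the stem-loop or has a long 3′ UTR. Other genes had such models too and rose, among them Hist1h2ae (2.29), Hist1h2bh (2.05), Hist2h3c1 (1.44), Hist2h4 (1.24), Hist1h3f (1.07) and Hist1h4d (1.07). The models are the annotation's, and which 3′ end was read in these cells was not measured. The 21 genes whose models run past the stem-loop gave 42.5% of the UMIs, by way of Hist1h1e, Hist1h4d, Hist1h2ae and Hist1h1c.

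**Figure D3:**
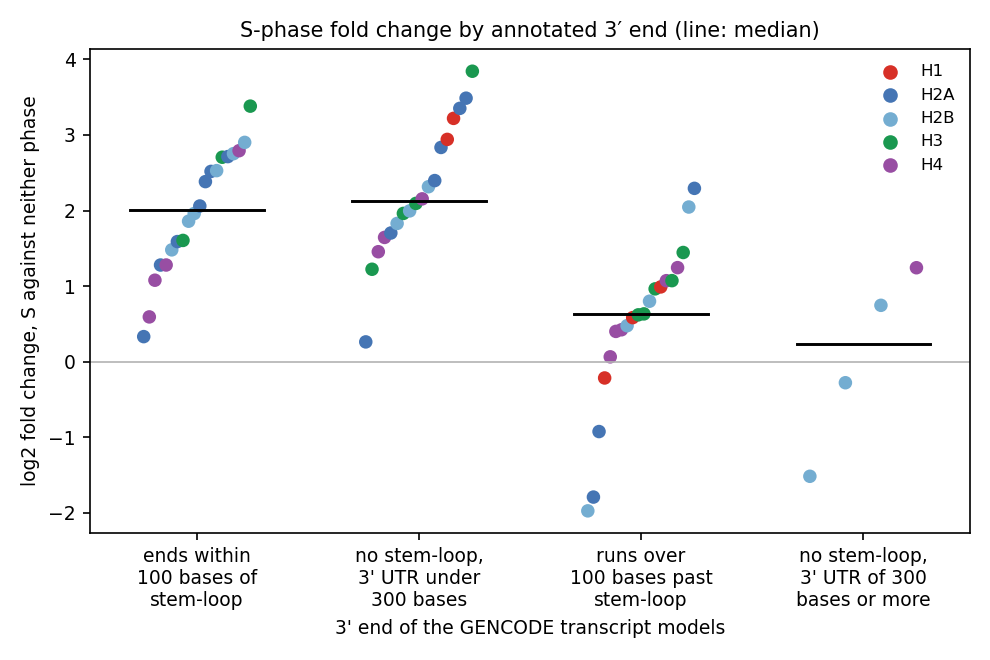
Log2 fold change in S against neither phase (y axis) of the 62 Hist genes tested, grouped by the 3′ end of their GENCODE models (x axis) and coloured by family, with a line at each group's median. The medians are 2.01, 2.12, 0.63 and 0.23 from left to right, and points below 0 lie in the last 2 groups.

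The 150 bases before the start were taken from RefSeq's GRCm38.p6 promoters, which matched 62 of the 67 genes. On either strand CCAAT was found in 51 of the 62, against 24.5% of 32851 promoters of the same length, TATAAA in 24 against 7.57%, and the octamer ATTTGCAT in 10 against 0.998%. No motif of the 3 contains another. CCAAT was in 6 of 6 H1, 18 of 18 H2A, 16 of 16 H2B, 8 of 10 H3 and 3 of 12 H4 promoters. The octamer was in 5 H2A and 5 H2B promoters and in none of the other families. Promoters of neighbouring genes on opposite strands can overlap, so the same site can count for both, as the octamer of Hist1h2ae and Hist1h2bg does. A further promoter of Hist1h2be, which has the octamer, was not counted. A match is a run of letters, and no binding was measured. Below are the promoters of 2 genes that rose in S (Hist1h1b and Hist1h3g), of the 2 that fell, and of Hist1h2br, which differed between libraries. They read 5′ to 3′ along the gene, with the motifs on either strand in capitals:
Hist1h1b, chr13:21780626-21780775, minus strand: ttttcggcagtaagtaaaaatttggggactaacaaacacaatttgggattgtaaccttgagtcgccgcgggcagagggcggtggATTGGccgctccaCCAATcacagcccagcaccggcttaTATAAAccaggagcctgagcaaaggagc
Hist1h3g, chr13:23535268-23535417, plus strand: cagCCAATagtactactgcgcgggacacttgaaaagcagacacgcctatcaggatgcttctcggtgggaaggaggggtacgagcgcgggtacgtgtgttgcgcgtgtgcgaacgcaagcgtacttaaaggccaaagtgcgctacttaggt
Hist1h2br, chr13:21833593-21833742, plus strand: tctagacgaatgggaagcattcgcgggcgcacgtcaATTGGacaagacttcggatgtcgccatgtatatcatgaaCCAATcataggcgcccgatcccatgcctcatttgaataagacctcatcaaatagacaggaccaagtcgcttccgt
Hist3h2a, chr11:58954535-58954684, plus strand: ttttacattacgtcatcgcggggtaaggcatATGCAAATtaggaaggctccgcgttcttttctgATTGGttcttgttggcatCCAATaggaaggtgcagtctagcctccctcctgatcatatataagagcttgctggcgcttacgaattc
Hist3h2ba, chr11:58948761-58948910, plus strand: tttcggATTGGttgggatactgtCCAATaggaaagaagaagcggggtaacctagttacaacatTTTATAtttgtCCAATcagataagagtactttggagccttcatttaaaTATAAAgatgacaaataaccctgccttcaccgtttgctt
CCAAT stood in all 5 of these promoters. It was not found in those of Hist1h4b, Hist1h4f, Hist1h4k, Hist1h4n and Hist2h3c1, which also rose in S.

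Many genes that serve the histone supply also rose in both states against neither phase, where over all genes 19.4% rose and 21.0% fell in S, and 26.0% rose and 28.7% fell in G2/M. Of 15 genes for histone pre-mRNA transcription and 3′-end processing 10 rose in S and none fell, and in G2/M 12 rose and 1 fell. From S to G2/M 50 of 62 Hist genes rose, and over all genes 10.9% rose and 8.91% fell. Of these 15 genes 1 rose there and 3 fell: Slbp (-0.37), Casp8ap2 (-0.59) and Lsm10 (-0.34). Slbp, which binds the stem-loop, rose by 1.53 in S (SE 0.11, adjusted p = 2.39e-05) and 1.16 in G2/M. Npat rose by 0.75 in S, Casp8ap2, which works in the same nuclear body, by 0.92, and Eri1, an exonuclease that trims histone messages, by 1.11. Zfp473, a zinc finger protein of the processing complex, rose by 1.77 in G2/M (adjusted p = 0.00978), with -0.25 in S (adjusted p = 0.722), and Lsm10, part of the U7 particle, fell in G2/M by 0.45 on the log2 scale.

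Of 16 chaperones and modifiers of new histones 12 rose in S and 12 in G2/M, and none fell in either. From S to G2/M 2 of them rose, a share near the 10.9% of all genes, and 3 fell, where 8.91% of all genes did. Asf1b, which hands H3 and H4 on, rose by 3.25 in S and 3.81 in G2/M. Chaf1a, the large subunit of the assembly factor CAF-1, rose by 1.92 in S, Nasp, a carrier of histone stores, by 1.68 and Hat1, which acetylates new H4, by 1.53. Of 11 variant genes outside the clusters 2 rose and 1 fell in S, a share of rises near that over all genes. In G2/M 6 of them rose and none fell. From S to G2/M the variant genes that passed the test were Cenpa, H1f0, H2afv, H2afx and H3f3b, all of which rose. H2afz rose by 1.06 in S and 1.86 in G2/M. H2afx changed by 1.06 in S (adjusted p = 0.0533) and rose by 3.37 in G2/M, and Cenpa, the centromeric H3, rose in G2/M by 3.79. H3f3b changed by -0.27 in S (adjusted p = 0.0758) and rose by 0.38 in G2/M. H1f0, the linker histone of resting cells, fell in S by 1.12 on the log2 scale (SE 0.25, adjusted p = 0.00763).

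Clusters of cells, made without the Hist genes, were named by fixed markers, and 8 classes held 50 cells or more in control and another library. In control the summed Hist level was 17723 CPM in B-cell progenitor-like, 12958 in neutrophil-like and 10231 in megakaryocyte-like cells. It was 5985 in erythroid progenitor-like, 4339 in monocyte/macrophage progenitor-like, 3881 in granulocyte progenitor-like, 3165 in basophil/mast-like and 2269 in HSC/MPP-like cells. This order is one library's, with counting intervals that do not overlap between neighbours, and no spread between animals can be given. The Mll3 library kept the same order. In the Mll4 library, too, B-cell progenitor-like cells stood highest (17411) and HSC/MPP-like cells lowest (2170), with granulocyte progenitor-like (5098) above monocyte/macrophage progenitor-like cells (3758).

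The order of the classes was not that of their shares of dividing cells. B-cell progenitor-like and HSC/MPP-like cells of control, the highest and the lowest of the 8 classes, had 40.0% and 38.4% of cells in S or G2/M. In control cells of neither phase the class sums lay between 859.5 and 3027 CPM, and in G2/M cells of classes with 20 or more of them between 6139.7 and 27457. B-cell progenitor-like cells led in both states. Erythroid progenitor-like cells, with 97.4% in S or G2/M, reached 6139.7 in G2/M, less than the 14124 of neutrophil-like and 14542 of megakaryocyte-like cells. Median depth was 52558 UMIs in erythroid progenitor-like and 4141 in B-cell progenitor-like control cells, and its part in these levels was not tested.

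**Figure D4:**
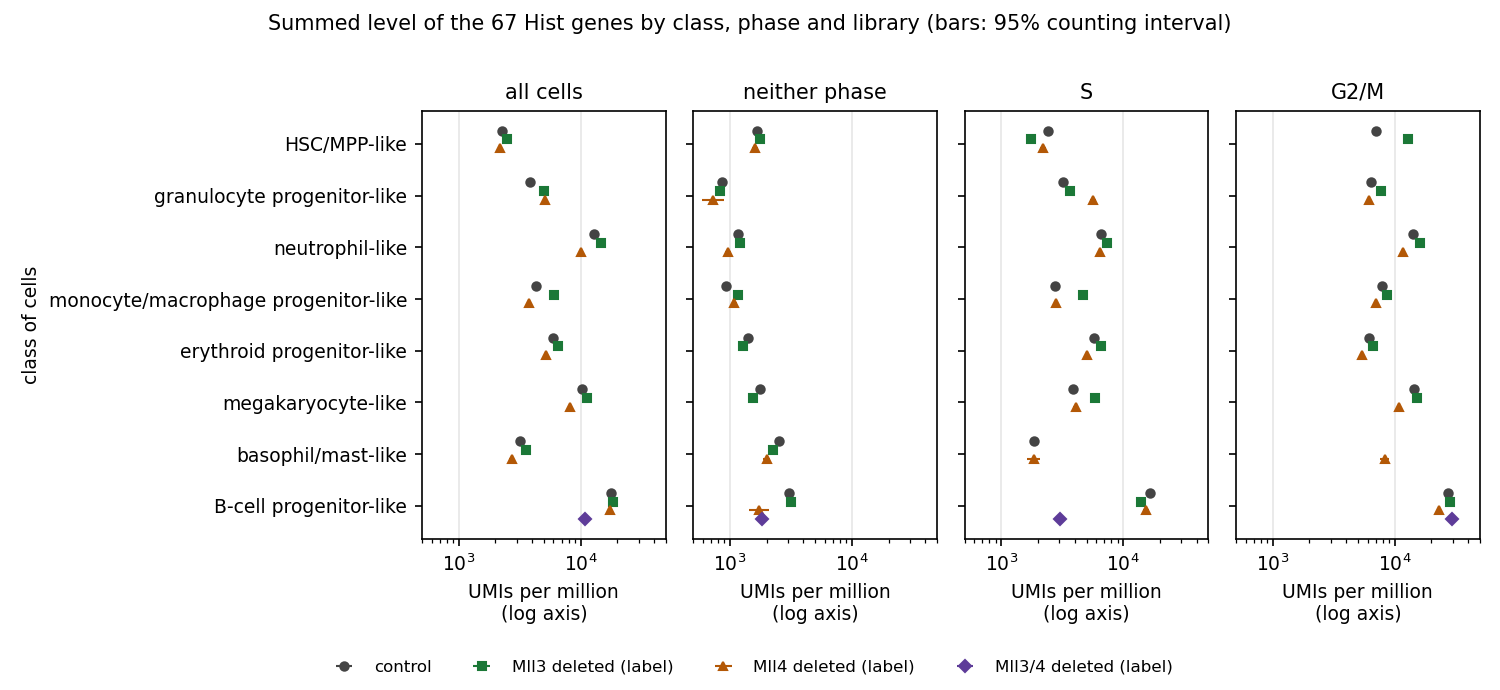
Summed level of the 67 Hist genes in CPM (x axis, log scale) by class of cells (y axis), in all cells and in cells of neither phase, S and G2/M, 1 point per library with its 95% counting interval. B-cell progenitor-like cells of the Mll3/4 library lie below control in all cells, neither phase and S, and at 29509 against 27457 in G2/M.

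Within classes the Mll3 library lay above control in the summed level in all 8, by log2 0.05 in B-cell progenitor-like to 0.49 in monocyte/macrophage progenitor-like cells. Hist1h2ap, higher in 8 of 8 classes in Mll3 as set out below, is part of these sums, which were not taken without it. Over whole libraries the sum was 6903 CPM in control and 7578 in Mll3 with Hist1h2ap, and 6670 and 6842 without. The class sums therefore do not show a rise of the other Hist genes. Restricted to cells of neither phase the sign of the Mll3 ratio turned in granulocyte progenitor-like (-0.04), erythroid progenitor-like (-0.16), megakaryocyte-like (-0.19) and basophil/mast-like cells (-0.17). The Mll4 library lay above control in granulocyte progenitor-like cells, at 0.39, and below it in 7 classes, from -0.03 in B-cell progenitor-like to -0.36 in neutrophil-like cells. In cells of neither phase the sign turned in granulocyte progenitor-like (-0.24) and monocyte/macrophage progenitor-like cells (0.23). Without Hist1h1b it turned in B-cell progenitor-like (0.15), monocyte/macrophage progenitor-like (0.050) and erythroid progenitor-like cells (0.027), and in basophil/mast-like cells it turned with another clustering seed (0.12) and in cells of at least 3000 UMIs (0.58). The neutrophil-like cells of the Mll4 library sat mostly in clusters 2 and 16, and those of control in clusters 8, 11 and 18. In HSC/MPP-like cells the sums were 2269 in control, 2504 in Mll3 and 2170 in Mll4. Those ratios of 0.14 (0.12 to 0.17) and -0.06 (-0.12 to -0.01) both changed sign under an alternative: the first to -0.06 with another clustering seed, the second to 0.38 with doublets kept and to 0.05 without Hist1h1b.

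The Mll3/4 library can be compared with control in B-cell progenitor-like cells alone. Over whole libraries its Hist sum lay above control (10901 against 6903 CPM), and within that class below it. The class stood at 17723 in control, 18393 in Mll3, 17411 in Mll4 and 10943 in Mll3/4. In the first 3 libraries the class was nearly all from clusters 14 and 20, and cluster 20 was led by genes of mature B cells (Igkc, Ly6d, Cd74, Ms4a1). It gave 145 of the 515 Mll3 cells, 21 of the 490 control cells and 4 of the 147 Mll4 cells. Cluster 14 alone stood at 18055 in control, 20592 in Mll3 and 17559.9 in Mll4. Over the class the sums of the first 3 libraries lay close together, and Mll3/4 was apart, at log2 -0.70 (-0.71 to -0.68). The sums include Hist1h2ap, which in this class exceeded control by more CPM in Mll3 and Mll4 than the sums differed from control. Its levels are given below, and where these libraries would lie without it was not tested. By phase, cells of neither phase stood at 3027 in control and 1831 in Mll3/4 (-0.73), with the Mll4 library at 1744, S cells at 16633 and 3034 (-2.45), and G2/M cells at 27457 and 29509 (0.10). Of the 48 control S cells of this class 43 also had a G2/M score above 0, against 347 of 1204 in Mll3/4. All but 6 of the Mll3/4 cells came from other clusters, 0, 3, 5 and 10, of which cluster 5 stood at 30723 CPM and the other 3 at 1854 to 2113. G2/M cells gave 50.4% of the class's gene UMIs in control and 32.1% in Mll3/4.

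By gene, none of 63 Hist genes with enough UMIs was 2-fold higher in the Mll3/4 B-cell progenitor-like cells and 10 were 2-fold lower, where 9.85% of all genes were higher and 8.75% lower. A 2-fold difference here means at least 20 UMIs in either library, a ratio of 2 or more either way and an interval that leaves out a ratio of 1. The median log2 ratio was -0.63 over the Hist genes and -0.03 over all genes. The linker genes Hist1h1a (613 CPM in control and 209 in Mll3/4, log2 -1.55) and Hist1h1b (5116 and 2302, -1.15) were among the lower, with Hist4h4 (-1.64), Hist2h3c1 (-1.55) and Hist1h2bk (-1.35). Hist1h1e stood at 3011 and 2066 (-0.54). Hist3h2ba stood at 31.4 and 55.0 (0.81, interval 0.52 to 1.10), which is short of 2-fold. Within the Mll3/4 cells it stood at 124 in cluster 5 and at 14.0 to 30.9 in clusters 0, 3 and 10. Hist3h2a stood there at 42.4 and at 8.99 to 22.6. Scaling by TMM brought the count of lower genes to 7.

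Some single genes differed between libraries by more than the sum did, and a few of them in the same direction in each class tested. In the Mll3 library 28 of 419 comparisons of a Hist gene in a class with control were 2-fold higher and 2 lower. Over all genes 1.98% to 3.91% differed 2-fold either way, by class. Of the 28, Hist1h2ap gave 8, Hist1h2br 5 and Hist1h2ai 4. In the Mll4 library 57 of 417 were 2-fold higher and 52 lower, where 7.55% to 17.2% of all genes differed either way, by class. In the Mll4 comparisons the median of all genes lay at 0.07 to 0.24. TMM scaling turned the split to 45 higher and 92 lower, so the balance of the 2 directions there depends on the scaling. Each comparison uses the same control library.

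By class, the Mll3 library had 1 of 54 Hist genes 2-fold higher and none lower in HSC/MPP-like cells, where 1.08% of all genes were higher and 1.83% lower. In granulocyte progenitor-like cells 5 of 52 were higher and none lower (0.622% and 1.56% of all genes), with Hist1h2ai (1.13), Hist1h2br (1.05), Hist1h3b (1.03) and Hist2h3b (1.03) beside Hist1h2ap. In neutrophil-like cells 5 of 59 were higher and none lower (0.907% and 1.15%), among them the H4 genes Hist1h4m (1.30) and Hist1h4n (1.19). Monocyte/macrophage progenitor-like cells had the most, 7 of 53 higher and none lower (0.709% and 1.27%), with Hist1h2ai at 1.39 and Hist1h2ae at 1.21. Erythroid progenitor-like cells had 2 of 63 higher and 1 lower (1.19% and 2.72%), the lower one being the testis linker gene Hist1h1t (-2.27). Megakaryocyte-like cells had 2 of 58 higher and none lower (0.918% and 2.20%), basophil/mast-like cells 2 of 25 and none (0.796% and 2.10%), and B-cell progenitor-like cells 4 of 55 and 1, Hist1h2bk at -1.32 (1.12% and 2.10%).

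The Mll4 library had 5 of 53 Hist genes 2-fold higher and 4 lower in HSC/MPP-like cells, where 5.97% of all genes were higher and 2.23% lower. In granulocyte progenitor-like cells 10 of 51 were higher and 3 lower (7.32% and 2.20% of all genes), with Hist1h2ai at 2.07. In neutrophil-like cells 10 of 60 were higher and 11 lower (4.67% and 4.05%), and the lower ones took in the linker genes Hist1h1c (-1.13) and Hist1h1e (-1.08). Monocyte/macrophage progenitor-like cells had 10 of 55 higher and 7 lower (8.91% and 2.78%), with Hist1h2bk at -2.24. Erythroid progenitor-like cells had 7 of 63 higher and 6 lower (6.42% and 1.61%). Megakaryocyte-like cells had 5 of 57 higher and 13 lower (5.31% and 2.24%), the latter with 3 linker genes, Hist1h1c (-1.35), Hist1h1a (-1.09) and Hist1h1e (-1.01). Basophil/mast-like cells had 2 of 25 higher and 1 lower, Hist1h3c at -1.32 (12.1% and 5.06%). B-cell progenitor-like cells had 8 of 53 higher and 7 lower (6.85% and 3.14%), with Hist1h2ad at 2.54.

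Hist1h2ap, an H2A gene, shifted in each class and in both of these libraries. It stood at 233 CPM in control, 736 in Mll3, 1300 in Mll4 and 302 in Mll3/4. Control and Mll3/4 were low, Mll3 intermediate and Mll4 high. Those are whole-library levels, and in B-cell progenitor-like cells the Mll3/4 log2 ratio of Hist1h2ap to control was -0.52. Hist1h2ap was 2-fold higher in 8 of 8 classes in Mll3 (log2 1.55 to 1.96) and in 8 of 8 in Mll4 (1.98 to 2.74). In HSC/MPP-like cells it went from 61.4 in control to 197 in Mll3 and 361 in Mll4, and in B-cell progenitor-like cells from 434 to 1361 and 2498. Within cells of neither phase it went from 33.2 in control to 90.7 in Mll3 and 160 in Mll4, and to 9.88 in Mll3/4.

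Other genes followed it in the Mll4 library. Hist1h4h, an H4 gene, stood at 82.2, 137, 283 and 197 CPM in the order control, Mll3, Mll4, Mll3/4, and was 2-fold higher in 8 of 8 classes in Mll4 (log2 1.19 to 1.87). Hist2h2aa1, an H2A gene whose model overlaps an antisense gene, stood at 16.5, 25.1, 77.2 and 23.2, and was higher in 7 of 7 (1.66 to 2.69). Hist1h2br, an H2B gene, stood at 10.5, 20.4, 55.1 and 13.4, and was higher in 7 of 7 in Mll4 (1.69 to 2.16) and in 5 of 7 in Mll3. Those 3 and Hist1h2ap share the same order of the first 3 libraries, with Mll4 high, Mll3 between and control low. Hist1h4m, at 0.684, 1.38, 6.16 and 0.863, was higher in 3 of 3 classes with enough UMIs (2.39 to 4.09). These levels, too, are over whole libraries. In B-cell progenitor-like cells the Mll3/4 log2 ratio to control was 0.13 for Hist1h4h, -0.35 for Hist2h2aa1, -0.45 for Hist1h2br and -0.85 for Hist1h4m. In neutrophil-like cells Hist3h2ba stood at 0.25 in control, from 6 UMIs, and at 5.92 in Mll4 (4.57).

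The opposite shift was widest in Hist1h2bl, an H2B gene, at 26.9 CPM in control, 24.6 in Mll3, 4.0 in Mll4 and 48.2 in Mll3/4. Mll4 was low and the other 3 libraries lay well above it. Those are whole-library levels, and in B-cell progenitor-like cells the Mll3/4 log2 ratio of Hist1h2bl to control was -0.78. It was 2-fold lower in Mll4 in 7 of 7 classes, with log2 ratios of -3.63 to -1.59 where the Mll4 library held any of its UMIs, and 106 UMIs against none in granulocyte progenitor-like cells. The HSC/MPP-like value rests on 1 UMI in Mll4 (-3.30, interval -8.62 to -0.80). Hist1h2bg was lower in 7 of 7 classes (-1.65 to -1.02), Hist1h3i and Hist1h2an in 6 of 8 each and Hist1h2af in 5 of 7.

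**Figure D5:**
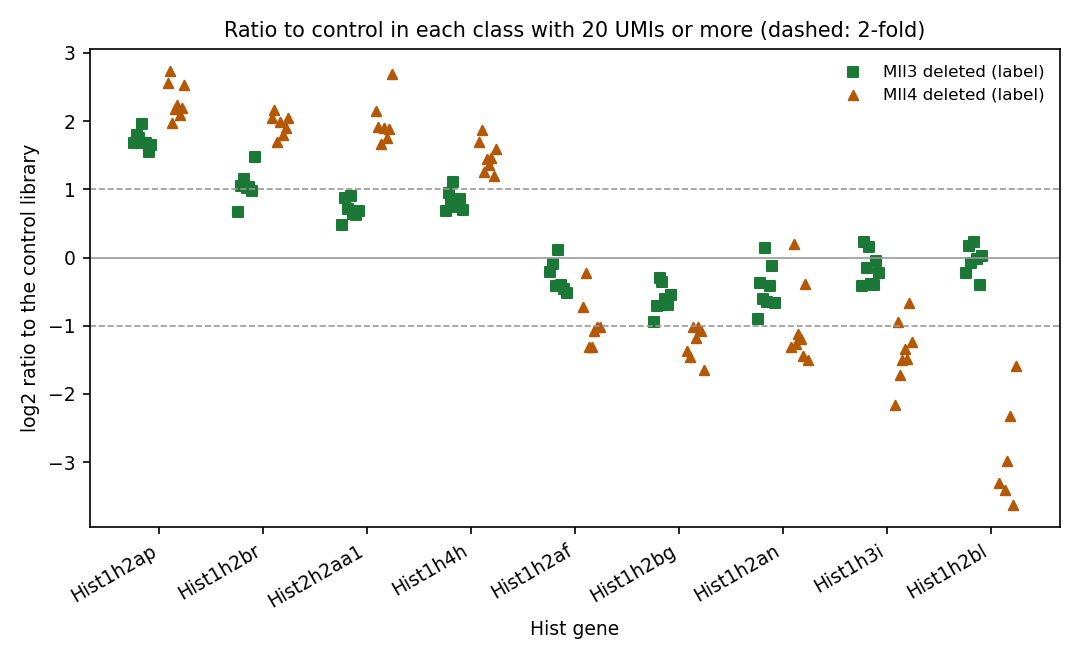
Log2 ratio to the control library (y axis) of the 9 Hist genes that were 2-fold higher or lower in 5 classes or more of the Mll4 library (x axis), 1 point per class with 20 UMIs or more in either library, with dashed lines at 2-fold. The points of Hist1h2ap lie above 1 in both libraries, and those of Hist1h2bl below -1 in Mll4 and near 0 in Mll3; the Mll4 granulocyte progenitor-like cells, with none of its UMIs, have no point.

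Near-identical copies limit what a single gene's count means, since a read that fits 2 copies equally cannot be given to either. By their coding sequences 45 of the 67 genes fell into 7 groups that encode the same protein: 13 H4 genes, 9 H2A genes with Hist1h2ap among them, 8 and 4 H3 genes, 6 and 3 H2B genes, and the pair Hist2h2aa1 and Hist2h2aa2. The whole coding sequence was identical in 5 pairs, Hist1h2ao with Hist1h2ap, Hist1h2bq with Hist1h2br, Hist1h4m with Hist1h4n, Hist2h2aa1 with Hist2h2aa2, and Hist2h3c1 with Hist2h3c2. The gene of each pair with fewer UMIs had 306 (Hist1h2ao), 4 (Hist1h2bq), 561 (Hist1h4m), 10 (Hist2h2aa2) and 252 (Hist2h3c2). For 12 genes over 80% of the 90-base windows of their models occur in another gene, and for 9 none does. Hist1h1e and Hist1h2be overlap on the same strand. The counts of these genes are therefore uncertain between copies, and 4 of the 5 genes that were higher in Mll4 across classes, all but Hist1h4h, belong to those pairs. Hist1h4h shares 40.2% of its windows with another gene. The genes that were lower in Mll4 across classes share windows too: Hist1h2an 83.9%, Hist1h3i 72.7%, Hist1h2bl 66.8%, Hist1h2af 66.5% and Hist1h2bg 45.9%.

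Copies were also summed, though a read that could be given to neither copy is not in such a sum. The sums therefore put no bound on what was lost. The 9 genes of the H2A protein stood together at 840 CPM in control, 1542 in Mll3, 2117 in Mll4 and 1384 in Mll3/4. Without Hist1h2ap they stood at 608, 806, 818 and 1082. In Mll3 and Mll4 most of the group's counted excess over control was thus Hist1h2ap, and the other 8 together were not lower than in control. The pair Hist1h4m and Hist1h4n stood at 3.59, 5.36, 12.7 and 3.98, and the 6 H2B genes with Hist1h2br and Hist1h2bl at 146, 154, 170 and 278. In that H2B group one gene was higher and the other lower in Mll4, and the sum moved less than either. The 13 H4 genes stood at 561, 620, 867 and 1343. Within B-cell progenitor-like cells, however, the Mll3/4 log2 ratio to control was below 0 for each of them but Hist1h4h (0.13). It ran from -1.64 for Hist4h4 to -0.17 for Hist1h4d in the others. All 67 genes without Hist1h2ap stood at 6670, 6842, 5825 and 10599. These sums are over whole libraries, and nearly all Mll3/4 cells were B-cell progenitor-like, the class with the highest Hist level in control.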

How the data were processed

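The deposited matrices hold UMI counts per gene and cell, not normalized, made with Cell Ranger 6.1.2, per the file headers, on mm10, per the submitters' processing notes. The annotation release and cell-calling settings are not given in the sources used here. The Hist genes and the gene lists were chosen with earlier results of these data known.

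Barcodes with at least 500 genes, 1000 UMIs and at most 10% mitochondrial UMIs were kept. The highest Scrublet scores were removed as doublets at 0.8% per 1000 barcodes. Cells were clustered with scanpy 1.11.5 (2000 variable genes without Hist genes, Xist, Y-linked and mitochondrial genes, 30 components, 15 neighbours, Leiden resolution 1) and each cluster was named by set markers for 13 classes. Phases came from scanpy's gene scores. UMIs were summed per library and phase and tested with edgeR 4.0.16 (TMM, filterByExpr, library as block, R 4.3.3), a procedure tested on simulated data. With library as a block, p-values weigh the difference between phases against how much it varied among these libraries, with 1 library per group. Libraries were compared within classes by exact conditional binomial intervals at 95%.

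Levels are CPM, UMIs per 1000000 gene UMIs. Transcript models and coding sequences came from GENCODE M21, and promoters from RefSeq on GRCm38.p6. Genes are named by a rule: the 12 with most UMIs, the 5 largest and 5 smallest called phase changes, up to 5 per library comparison and class, copies by group, and set pathway genes. Others named for a count of 7 or fewer, or singled out, were chosen after their values were seen. Alternatives covered DESeq2 1.42.0, normalization, filters, phase calls, clustering and each library left out.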

Additional observations from a re-analysis of the deposited data

Results flagged for a closer look

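The summed Hist level moved in opposite directions in 2 classes of the Mll4 library, at log2 0.394 against control in granulocyte progenitor-like cells and -0.359 in neutrophil-like cells. In cells of neither phase both values were below 0, at -0.24 and -0.26. The neutrophil-like cells sat mostly in clusters 2 and 16 in Mll4 and in clusters 8, 11 and 18 in control. With 1 library per group the difference between the classes was not tested. Hist1h1e also differed in sign between libraries for S against neither phase, at log2 0.843 in the Mll3 library and -0.0815 in the Mll3/4 library, and that difference was not tested.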

How the results depend on the processing

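No paired analysis was possible because the labels give 1 library per group and no replicate numbers that link groups; the phase fit already has library as a block. Leaving out 1 library at a time, 29 to 49 Hist genes rose in S and 1 to 4 fell, 54 to 56 rose in G2/M and 0 to 2 fell, and 18 to 56 rose in G2/M against S. In HSC/MPP-like cells alone 19 of 33 rose and 6 fell in S, 32 rose in G2/M and 33 in G2/M against S, with 33 tested. There Hist1h1e (-0.35) and Hist1h4i (-0.59) changed sign in S, Hist1h2bc in G2/M (1.04, and 1.73 in B-cell progenitor-like cells) and Slbp in G2/M against S (0.084). In B-cell progenitor-like cells 1 gene fell in S. With the S score alone above 0, 1 rose and 7 fell, and with both scores 1 fell. The cause of these differences was not tested.

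In HSC/MPP-like cells the Mll3 log2 ratio of the sum was 0.048 with doublets kept, 0.27 at Leiden resolution 2, -0.058 with seed 1, 0.27 in cells of at least 3000 UMIs and 0.084 in neither phase, and its count of genes past 2-fold went from 1 to 2, 5, 5 and 5 in the first 4 and to 2 with TMM. The Mll4 ratio was 0.38 with doublets kept, -0.32 with TMM and 0.048 without Hist1h1b, and its count went from 9 to 15 with doublets kept, 15 at resolution 2, 17 at 3000 UMIs and 16 with TMM. In B-cell progenitor-like cells the Mll3 ratio was -0.0025 with doublets kept, 0.13 at 3000 UMIs, 0.14 with TMM, 0.17 without Hist1h1b and 0.079 in neither phase, with 3 genes past 2-fold at 100 UMIs. The Mll4 ratio was -0.28 with TMM, 0.15 without Hist1h1b and -0.80 in neither phase, with 9 genes at 100 UMIs. The Mll3/4 ratio was -0.82 at 3000 UMIs, -0.57 with TMM, -0.54 without Hist1h1b and -0.73 in neither phase, and stayed below 0 in these. Restricted to neither phase, the sum also changed sign in Mll3 granulocyte progenitor-like (-0.043), erythroid progenitor-like (-0.16), megakaryocyte-like (-0.19) and basophil/mast-like cells (-0.17), and in Mll4 granulocyte progenitor-like (-0.24) and monocyte/macrophage progenitor-like cells (0.23). Without Hist1h1b it did in Mll4 monocyte/macrophage progenitor-like (0.050) and erythroid progenitor-like cells (0.027), and in Mll4 basophil/mast-like cells with seed 1 (0.12) and at 3000 UMIs (0.58). The median ratio of Hist1h2bl in Mll3 was 0.021 at resolution 2, 0.026 at 3000 UMIs and 0.045 with TMM. The cause was not tested. Depth was lowest in the Mll4 library, where classes of few cells leave genes of few UMIs without a value.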

Other observations

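Each library carried 2 hashtag antibodies that the labels do not assign to samples. In a comparison chosen after seeing the data, cells with over 5 times as many counts of one hashtag as of the other were taken as subsets of their library. Hist1h2ap stood at 234 and 232 CPM in the 2 subsets of control, 710 and 780.0 in Mll3, 1296 and 1249 in Mll4, and 285 and 329 in Mll3/4. Hist1h2bl stood at 27.9 and 26.1, 23.0 and 27.3, 4.21 and 3.80, and 46.5 and 51.0 in the same order. For 50 of the 55 Hist genes with 1000 UMIs or more, the range between libraries exceeded the largest difference between subsets of 1 library. The median of that largest difference was 0.248 on the log2 scale, and the median range between libraries 1.16. Subsets of 1 library share its preparation, so these values do not stand for replicates of a group. The levels are over whole libraries, which also differ in their mix of cell types. Other genes were not compared in this way, so the larger range between libraries does not single out the Hist genes.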
